A study of Mus musculus with 6 samples.

Results

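The MEIS and PBX homeobox genes were described by where DNA ends gathered in and around them in mouse embryonic fibroblasts. The 8 genes were Meis1, Meis2, Meis3, Pbx2, Pbx3, Pbx4, Pknox1 and Tgif1, out of 21887 protein-coding genes in the RefSeq table. They were chosen by name from 1 homeobox class, with their peaks already known. Their windows were the gene body and 50 kb beyond each end, and every peak summit in a window was taken. The windows held 11 of 6444 peaks of the vehicle (DMSO) list and 2 of 491 peaks of the treated list. By the authors' values, the weakest listed DMSO peak had a −log10 q of 18.5 and the weakest listed treated peak 3.38. The lists thus end at different strengths, and the counts of peaks are not compared between conditions. The distance from a gene to the nearest summit also depends on where its list ends.

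The ends were mapped by BrITL, in which broken DNA ends are tagged with a biotin nucleotide in permeabilised cells, captured on streptavidin beads and sequenced. All 6 samples came from passage-immortalised fibroblasts that carried 1 functional Atr allele (ATR+/-) and expressed Bcl-xL, an inhibitor of apoptosis. The cells received DMSO for 18 h, or 1 µM of the ATR inhibitor ATR-45 together with 0.2 µM aphidicolin, a DNA polymerase inhibitor, for 18 h. There were 2 pull-downs and 1 input per condition. Per the peak names, the authors called peaks on the pooled pull-downs against all inputs, taken here as the 1 input of the same condition. Each peak therefore has 1 value and no replicate error. A peak's fold is the authors' ratio of pull-down to background coverage at its summit. Since the lists hold no value per replicate, no p-value between conditions can be given, and values are ranked within a list only. The question the design addresses is where replication forks collapse without ATR. The files hold peaks of DNA ends and no expression values, so whether a gene was active, and whether the cells carry fibroblast markers, was not seen here.

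MEIS, PBX, PKNOX and TGIF proteins belong to the TALE class of homeodomain proteins, named for a loop of additional amino acids in the homeodomain. PBX proteins bind DNA together with HOX proteins and with MEIS or PKNOX proteins, and these complexes pattern the embryonic axis, limbs and blood. TGIF1 acts as a repressor and binds SMAD proteins of the TGF-β pathway.

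The set of RefSeq promoters used here (GRCm38.p6, the assembly of mm10) listed a transcription start for 6 of the 8 genes. It had no entry for Pbx3 and Pknox1. Of the 10 promoter windows of these 6 genes, each from 250 bases before to 50 bases after a start, 5 lay wholly inside a DMSO peak and none met a treated peak. The promoters of Meis2 and of the Tgif1 start nearest to the summit are shown because DMSO peaks covered them, and those of Meis1 and Pbx2 because no peak met them. They run 5′ to 3′ in the direction of the gene, and capitals mark GGGCGG (the core bound by Sp and KLF factors), CCAAT (bound by NF-Y) and TGACAG (the MEIS and TGIF core) on either strand, with overlapping matches joined.
Meis2, chr2:116064570-116064869, minus strand: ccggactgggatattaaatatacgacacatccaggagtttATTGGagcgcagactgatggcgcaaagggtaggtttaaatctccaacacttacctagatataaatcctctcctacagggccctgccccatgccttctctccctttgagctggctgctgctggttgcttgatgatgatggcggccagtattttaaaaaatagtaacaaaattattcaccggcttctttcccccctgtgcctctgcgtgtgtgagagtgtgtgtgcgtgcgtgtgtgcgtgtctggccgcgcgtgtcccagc
Tgif1, chr17:70851161-70851460, minus strand: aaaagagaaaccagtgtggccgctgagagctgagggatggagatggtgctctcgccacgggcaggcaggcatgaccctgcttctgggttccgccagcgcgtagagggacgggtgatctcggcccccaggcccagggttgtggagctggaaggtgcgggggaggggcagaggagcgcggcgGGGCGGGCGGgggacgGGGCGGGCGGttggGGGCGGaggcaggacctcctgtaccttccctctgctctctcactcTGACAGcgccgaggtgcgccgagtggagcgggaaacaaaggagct
Meis1, chr11:19018920-19019219, minus strand: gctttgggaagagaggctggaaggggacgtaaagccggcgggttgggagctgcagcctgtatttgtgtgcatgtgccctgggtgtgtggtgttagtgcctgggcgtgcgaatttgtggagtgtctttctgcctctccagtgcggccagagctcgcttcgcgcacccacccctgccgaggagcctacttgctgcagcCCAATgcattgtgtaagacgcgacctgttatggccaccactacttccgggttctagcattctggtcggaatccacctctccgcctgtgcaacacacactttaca
Pbx2, chr17:34592009-34592308, plus strand: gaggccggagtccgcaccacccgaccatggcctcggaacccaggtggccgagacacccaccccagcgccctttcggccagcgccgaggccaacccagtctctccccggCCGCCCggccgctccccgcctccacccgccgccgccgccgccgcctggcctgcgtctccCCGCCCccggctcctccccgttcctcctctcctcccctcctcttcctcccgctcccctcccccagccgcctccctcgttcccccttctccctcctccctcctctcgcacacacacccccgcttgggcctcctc

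The marked letters occurred in promoters with and without a peak. The Tgif1 promoter held 5 matches of GGGCGG and 1 of TGACAG, both drawn as capitals above, and the Pbx2 promoter, with no peak, held 2 of GGGCGG. The Meis2 promoter held 1 CCAAT and 1 TATAAA and no GGGCGG, and the Meis1 promoter, with no peak, also held 1 CCAAT. Of all 32851 promoters of the same length, 35.7% held GGGCGG, 37.4% CCAAT, 19.2% TGACAG and 13.6% TATAAA. The PBX and HOX letters TGATTNAT, found in 3.22% of all promoters, were in 1 of the other Tgif1 promoters and in no other promoter of the 6 genes. TGANTCA (AP-1), TGACGTCA (CRE) and CACGTG (E-box) were in none of the 10, against 7.81%, 1.79% and 7.15% of all promoters. CpG content was likewise mixed. Promoters of protein-coding genes with a DMSO summit within 1 kb of the start had a median of 25 CpG in 300 bases (n = 4392), against 8 for the others (n = 16871). The Meis2 promoter had 13 CpG, below that of Pbx2 with 29, Meis3 with 21 and Pbx4 with 19, which were not in a peak. The 1 listed Meis2 start, at 116064619, lies inside the gene, whose start side ends at 116067537. The sequence at that gene end was not examined, so 13 CpG holds for the listed start only. The listed Meis3 start, at 16175395, likewise lies inside its gene, which begins at 16174012. The covered Tgif1 promoter shown had 23 CpG and Meis1 had 15.

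In DMSO cells, ends were listed in the windows of 7 of the 8 genes (45.8% of all protein-coding genes had such a summit). The genes were chosen with these peaks known, so this count is a description and nothing is read from it. Of the 11 DMSO summits, 5 had a member as the nearest protein-coding gene end, in 4 genes: Meis2, Pbx3, Pknox1 and Tgif1. The other 6 lay nearest to the end of a neighbouring gene. A DMSO summit within 1 kb of a transcription start was present at 4 of the 8 genes, Meis2, Pbx3, Pknox1 and Tgif1 (20.4% of all protein-coding genes). For Pbx3 and Pknox1 either gene end stood in for the start. Meis2 is counted through its weaker peak, with a fold of 10.0 and its summit 593 bp from the listed start. The summit of its stronger peak lay 1558 bp from that start. A DMSO summit inside the gene body was present in 2 of 8, Meis2 and Tgif1 (13.2% of all protein-coding genes). Treated summits were in the windows of 2 of 8, Pbx2 and Pknox1 (4.28% of all protein-coding genes), and in no gene body.

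**Figure D1:**
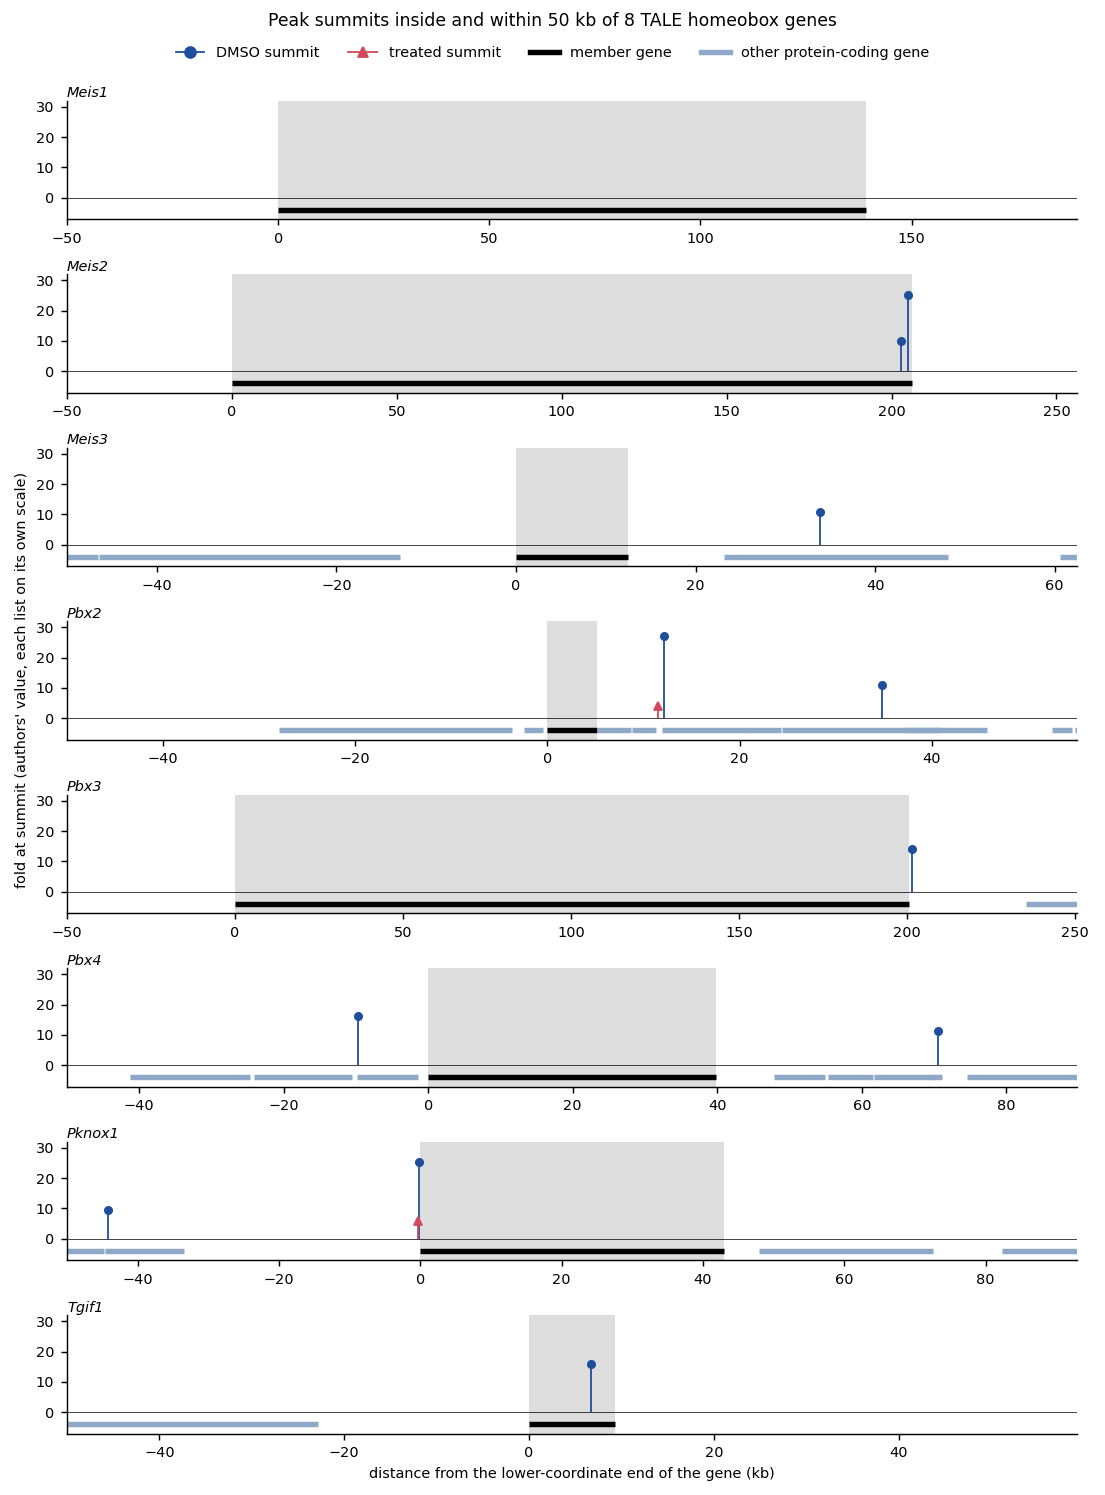
Each panel shows the window of 1 gene, with distance in kb from the end of lower coordinate on the x axis and the authors' fold at each summit on the y axis (circles DMSO, triangles treated, each list on its own scale). Black bars are the 8 genes and light bars other protein-coding genes. Meis1 is empty, the Meis2 and Pbx3 summits sit at 1 end of a long body, and the DMSO summits in the Pbx2, Pbx4 and Meis3 windows lie over neighbouring genes. The treated summit of the Pbx2 window lies between Rnf5 and Agpat1.

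Of the MEIS genes, which encode the partners that bind beside PBX, Meis2 alone had peaks at its own end. Meis2 spans 115861264 to 116067537 on chromosome 2, on the minus strand, so its upper end is the start side. The stronger DMSO peak spanned 116064464 to 116068726 (4263 bp), with its summit 1360 bp inside the upper end and a fold of 25.1. This was rank 25 of 6444 in the DMSO list (−log10 q 89.5 in the authors' deposited table). The peak held the listed Meis2 start, 1558 bp from its summit, and the listed start of the non-coding gene G630016G05Rik on the opposite strand, 1048 bp from its summit. A DMSO peak of fold 10.0, rank 4195, followed 180 bp further into the gene, spanned 116061971 to 116064283, and had its summit 593 bp from the listed Meis2 start. The files do not tell whether the authors' caller split a single site here. Together they covered 2.61% of the Meis2 body, and no other listed peak reached into it. The nearest treated summit was 3.76 Mb away.

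Meis1, a cofactor of HOX proteins in blood stem cells and leukaemia, spans 18880428 to 19019651 on chromosome 11. Its 239 kb window, which held no other protein-coding gene, had 0 DMSO and 0 treated summits. The nearest DMSO summit was 905 kb away, 404 bp from an end of Spred2, and the nearest treated summit was 1.52 Mb away. The lowest summit coverage among the listed DMSO peaks was 35 pull-down fragments, but how a peak was admitted was not stated. Sites left out of the list are not seen, so an empty window does not show that no ends formed there. Meis3 spans 16174012 to 16186510 on chromosome 7. Its window held 1 DMSO summit, with a fold of 10.7 and rank 3633, and that summit lay inside Dhx34, which encodes an RNA helicase of nonsense-mediated decay, 10.6 kb from the nearest Dhx34 end and 21.3 kb from Meis3.

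The PBX genes, which encode the HOX partners, had a peak at the gene's own end only in Pbx3. Pbx3 spans 34171457 to 34372045 on chromosome 2. The DMSO peak spanned 34370716 to 34374223, with its summit 905 bp beyond the upper end, a fold of 14.1 and rank 1286. It covered 0.663% of the 200.6 kb body, and no other summit of either list lay in the Pbx3 window. The strand of Pbx3 is not in the promoter table, so which end is the start was not read from it.

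Pbx2 spans 34592259 to 34597400 on chromosome 17, in a window with 10 other protein-coding genes, more than that of any other member. Its body was free of peaks. The window nevertheless held the DMSO peak of highest fold among the 11, with a fold of 27.3 and rank 10 of 6444 (−log10 q 100.01 in the authors' deposited table). That peak spanned 34601679 to 34607546, and its summit lay 224 bp inside an end of Agpat1, which encodes an enzyme of phosphatidic acid synthesis, and 858 bp from an end of Rnf5, which encodes a ubiquitin ligase of the endoplasmic reticulum. It was 7.02 kb from Pbx2. A treated peak, 34602945 to 34604899, lay wholly inside it, with its summit 228 bp from Rnf5 and 630 bp from the DMSO summit. Its fold of 4.19 was rank 431 of 491 in the treated list (−log10 q 4.75 in the authors' deposited table). A further DMSO summit in the Pbx2 window, with a fold of 10.99 and rank 3227, lay inside Ppt2, a thioesterase gene, 84 bp from a listed start. The limit of 50 kb decided on 1 more peak: a DMSO summit at Atf6b, a stress response transcription factor gene, with a fold of 12.4, lay 37 bp past it.

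Pbx4 spans 69832476 to 69872292 on chromosome 8, with 8 other protein-coding genes in its window. Both of its DMSO summits lay at neighbours. The summit with a fold of 16.3 and rank 628 lay 188 bp from the listed start of Lpar2, a lysophosphatidic acid receptor gene, and 9.72 kb from Pbx4. The summit with a fold of 11.2 and rank 2980 lay 454 bp from an end of Ndufa13, a gene of mitochondrial complex I, and its peak held the listed starts of Ndufa13 and Tssk6 on opposite strands.

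Pknox1, whose protein (also called PREP1) pairs with PBX, was the only member with peaks of both lists nearest to its own end. It spans 31564722 to 31607693 on chromosome 17. The DMSO peak spanned 31562796 to 31566780, with its summit 238 bp beyond the lower end of the gene, a fold of 25.3 and rank 23 (−log10 q 89.5 in the authors' deposited table). The treated peak, 31564189 to 31564546, lay wholly inside it, and the summits were 60 bp apart. Its fold of 5.99 was rank 79 of 491 in the treated list (−log10 q 6.20 in the authors' deposited table), and it covered 8.98% of the DMSO peak. Both treated peaks of the windows overlapped a DMSO peak, against 40.7% of the whole treated list. Counted from the other side, the same pairs made 2 of the 11 DMSO peaks, against 2.9% of the whole DMSO list. The genes were chosen with these peaks known, so nothing is read from these counts. The other DMSO summit in the Pknox1 window, with a fold of 9.51 and rank 5034, lay 343 bp from the listed start of Ndufv3, another complex I gene, and 44.3 kb from Pknox1. It was the summit nearest to the limit from inside, and the next past it on the other side was at U2af1, a splicing factor gene, 1.42 kb beyond the limit with a fold of 13.2.

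Tgif1 spans 70844205 to 70853532 on chromosome 17, on the minus strand, and has 5 listed starts. Its single DMSO peak, with a fold of 15.8 and rank 758, was the widest of the 11 at 6999 bp (70847847 to 70854845). It covered 61.0% of the gene body and reached 1313 bp beyond the upper end, and it contained 4 of the 5 promoter windows. The summit lay inside the gene, 2667 bp from the upper end but 345 bp from the nearest listed start, that of the promoter shown above. The promoter outside the peak had 2 CpG, against 15 to 23 in the 4 covered ones. The nearest treated summit was 3.67 Mb away.

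**Figure D2:**
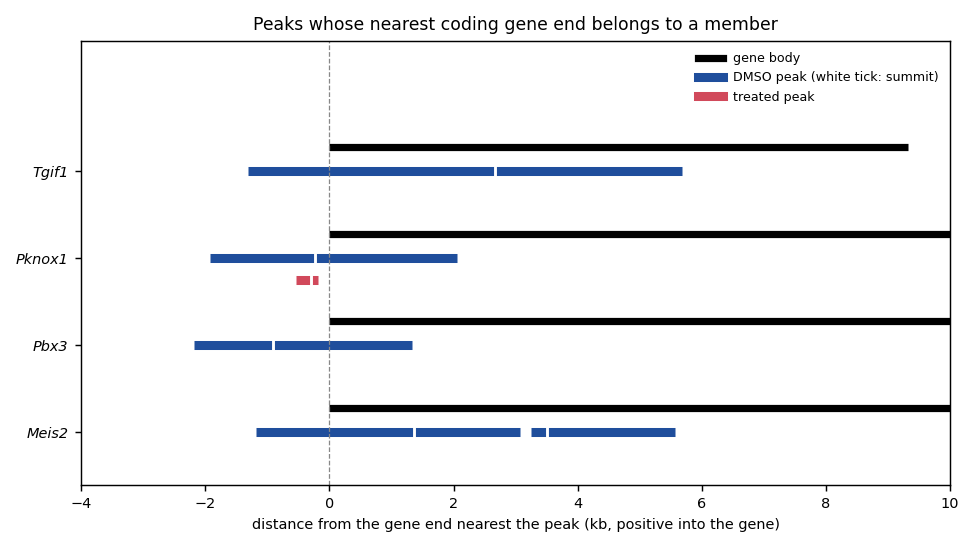
Extent of the peaks whose nearest protein-coding gene end belongs to Meis2, Pbx3, Pknox1 or Tgif1, with distance in kb from that end on the x axis, positive into the gene. Bars are DMSO and treated peaks, white ticks their summits and black bars the gene. Every DMSO peak but the weaker Meis2 peak crosses the end, and the Tgif1 peak reaches furthest into its gene.

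The peaks of the windows stood between rank 10 and rank 5034 of the DMSO list. Folds of the 11 DMSO peaks ran from 9.51 to 27.3 with a median of 14.1, and the whole list had a median of 10.99. The 5 peaks nearest to a member's end had a median of 15.8 (10.0 to 25.3), and the 6 nearest to a neighbour's end had a median of 11.1 (9.51 to 27.3), so the ranges overlapped. In all, 3 of the 11 stood at rank 25 or higher, at Agpat1 and Rnf5, at Pknox1 and at Meis2. Rank 25 marks the top 0.388% of the whole DMSO list. Widths ran from 2280 to 6999 bp with a median of 3750 bp, against 2855 bp in the whole list. The genes were chosen with these peaks known, so nothing is read from these folds, ranks and widths beside the whole list.

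**Figure D3:**
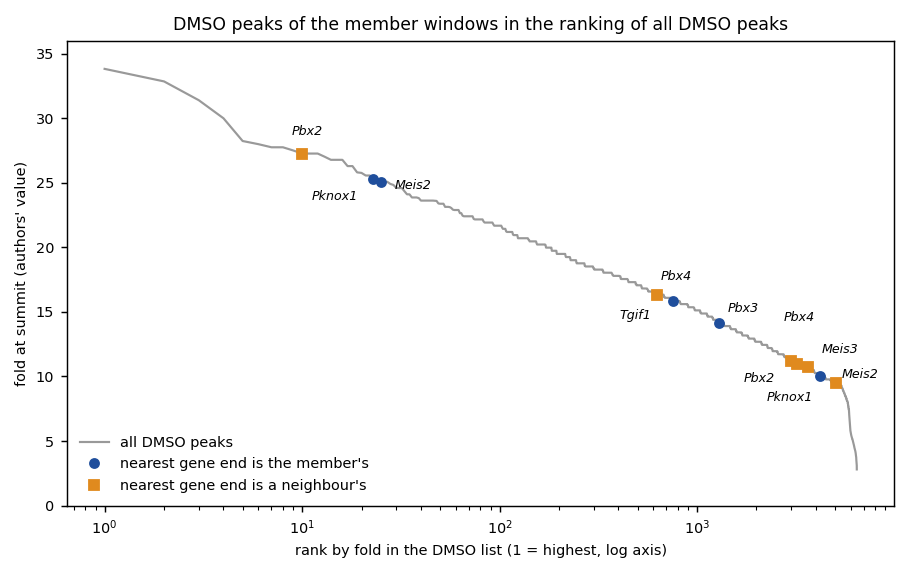
The authors' fold (y axis) against rank in the DMSO list (x axis, log scale), with the line showing all 6444 DMSO peaks. Circles are the 5 peaks nearest to a member's end and squares the 6 nearest to a neighbour's end, labelled by the member whose window holds them. Both kinds occur near the top and in the lower part of the ranking.

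Coverage behind the peaks was recovered from the authors' fold and p-value. The 3 highest DMSO peaks had 111 (Agpat1 and Rnf5), 103 (Pknox1) and 102 (Meis2) pull-down fragments at the summit, and the other 8 had 40 to 66, against a median of 49 in the whole list. The Meis2 peak of 40 fragments was the lowest of the 11. The background term was at the lowest value of the list, 2.32 scaled fragments, for 9 of the 11. It was at 3 for the Meis3 and Ndufv3 summits (30.7% of all DMSO peaks lay above that lowest value). At that lowest value the count follows from the fold, so for those 9 peaks, which include the 3 highest, the counts repeat the ranking by fold. In the treated list the Pknox1 peak had 45 pull-down fragments over a background of 2.47. The Pbx2 window's treated peak had 55 over 5, or 59 over 5.42, since both pairs give its fold and p-value once the pull-down count is scaled. These counts come from pooled libraries whose read totals are not in the files used here. The spread between the pooled pull-downs is not seen in them, and they rest on a scaling estimated from each list.

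**Figure D4:**
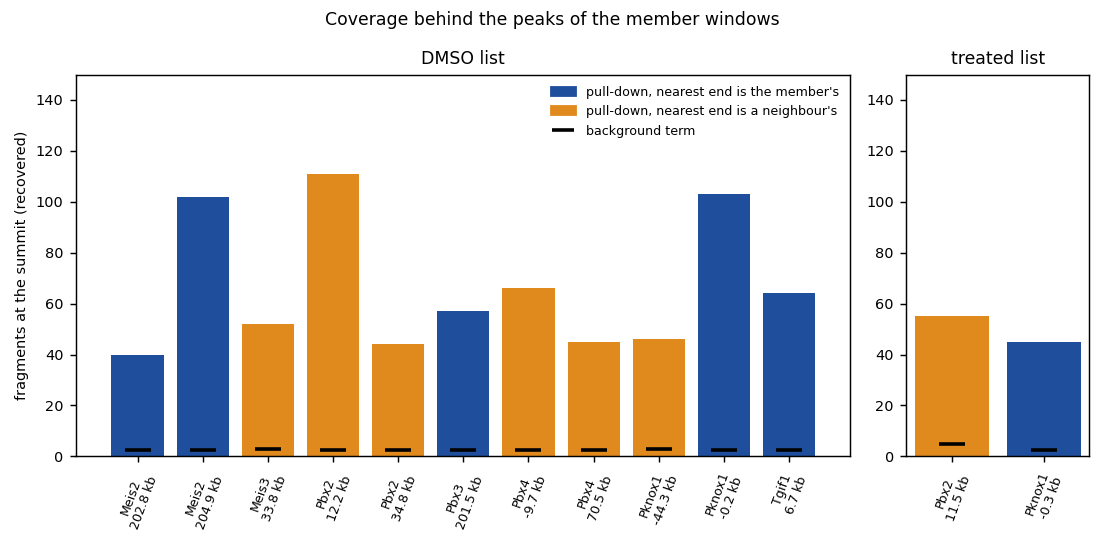
Recovered pull-down fragments at each summit of the member windows (bars, y axis) and the background term (black dashes), by window and distance from the lower end of the gene, for the DMSO list (left) and the treated list (right). Bars are unscaled counts and dashes are scaled, so their ratio is not the fold. The bars of 111, 103 and 102 fragments stand above the other 8 DMSO bars, and the DMSO background stays between 2.32 and 3.

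The density of peaks around the genes differed widely. Within 500 kb of the gene's midpoint lay 0 DMSO summits at Meis1, 2 at Meis2 and at Pbx3, 4 at Pknox1, 8 at Tgif1, 10 at Pbx4, 12 at Meis3 and 17 at Pbx2. The windows of Meis3, Pbx2, Pbx4 and Pknox1, each with at least 4 other protein-coding genes, held the 6 DMSO summits nearest to a neighbour. The windows of Meis1, Meis2, Pbx3 and Tgif1, with at most 1 other, held none of these. A window with few neighbours has few neighbour ends for a summit to lie near, so nothing is read from this split. By the sum of percentile differences in summits in the body, summits in the flanks and highest DMSO fold, Bhlhe40, Gpsm3, Plin4 and Notch4 equalled Pbx2, and Trim8 came next at 0.0525 percentile points. Gpsm3 and Notch4 lie 0.505 and 3.72 kb from Pbx2, and their windows share its peaks.

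Among 9 other TALE genes, 3 had a DMSO summit in the window and 0 a treated summit, against 45.8% and 4.28% of all protein-coding genes. All 3 had a DMSO summit within 1 kb of a start or gene end (20.4% of all protein-coding genes), and 1, Irx2, had it in the body (13.2%). Irx5, an Iroquois gene, had a fold of 15.6 and rank 828, 329 bp from a gene end. Irx2, of the same family, had a fold of 12.4 and rank 2131, 584 bp from a listed start. Tgif2, which encodes a TGIF repressor, had a fold of 11.47 and rank 2790, 373 bp from a listed start. Of 16 genes for partners and co-repressors of TALE proteins, 14 had a DMSO summit in the window, 10 within 1 kb of a start or gene end and 5 in the body, and 1 had a treated summit in the window. The shares of all protein-coding genes were 45.8%, 20.4%, 13.2% and 4.28% in the same order. Both lists were chosen with these peaks known, so nothing is read from the counts. Among the summits at an end or in the body of these genes, the highest folds were at Sin3a, the scaffold of a histone deacetylase complex (20.7, rank 124, 454 bp from a listed start), and Ctbp1, a co-repressor that binds TGIF1 (17.3, rank 450, 457 bp from a listed start). The remaining genes with a summit at an end or in the body had folds between 9.29 and 14.9: Rxra, Hdac1, Kmt2a, Crebbp, Smad2, Smad4 and Men1 with 1 summit each, and Smad3 with 5. None of the DMSO peaks named for both lists overlapped a treated peak.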

How the data were processed

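The deposited files were 2 peak lists, 1 per condition, on build mm10. The submitters' processing notes name bcl2fastq 2.17.1.14, STAR 2.5.2a, Picard 1.141, SAMtools 0.1.19 and MACS2 2.1.0 without roles or settings. How a peak was admitted to a list was not stated. The authors' values per peak were a fold enrichment (a ratio), −log10 p, −log10 q and a deposited score (the whole part of 10 times −log10 p), which was not used.

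A summit was column 2 plus column 10 plus 1. Genes came from RefSeq GRCm38.p6. Of 21887 protein-coding genes, 17492 had a listed start, and either gene end was used for the rest. Read totals are unknown. Fragments were recovered from the fold and p-value by inverting MACS2's Poisson model, to within 0.02 of −log10 p for 100% of peaks. On 300 simulated peaks per list 100% came back right. These were made with the same formula, scaling and lowest background as the inversion, so they check its arithmetic and not the model. Scaling and lowest background were estimated from the lists themselves. Of the listed peaks, 11.2% of treated and 0.109% of DMSO peaks had more than 1 solution. The recovered background cannot fall below a list-wide value.

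No test was run, since no value per sample exists, and members and gene lists were chosen with earlier results of these data known. Named genes were the 8 members, coding genes nearest to a summit in a window, listed genes with a summit within 1 kb of an end or in the body, and the 5 genes most like the member with the highest fold. Some genes of the lists are not reported here and are left out of the counts. Neighbours past the 50 kb limit were named after their values were seen. Stricter and joined peaks, other flanks, distances and overlaps were tried. Python 3.11.15, NumPy 2.4.6, SciPy 1.17.1, pandas 2.3.3 and matplotlib 3.10.9 were used.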

Additional observations from a re-analysis of the deposited data

How the results depend on the processing

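Of 41 recomputed values, 27 stayed within 1.5 times the reported one and 14 did not. With DMSO peaks kept at −log10 q of at least 50 and treated peaks at 5, the windows held 3 DMSO summits in 3 members and 1 treated summit in 1 member. A DMSO summit then remained within 1 kb of a start in 1 member and in the body of 1, 1 treated peak overlapped a DMSO peak, and the median DMSO fold was 25.3. With peaks at or above the median fold of their list, the windows held 7 DMSO summits with a median fold of 16.3, and 1 treated summit, in 1 member, which overlapped a DMSO peak. The treated peak of the Pbx2 window is below both limits, and that of Pknox1 is above both. A flank of 10 kb left 7 DMSO summits (median fold 16.3), and 100 kb gave 18 (median fold 13.7). Joining peaks within 2 kb gave a median fold of 14.997. Members with a DMSO summit within 1 kb of a start numbered 3 with joined peaks, and 3 with peaks at or above the median fold. These settings keep fewer or more peaks by construction. Leaving out a replicate was not possible, since replicates were pooled before peaks were called. No paired analysis was possible because the lists hold no value per sample. Peaks under the authors' cut were not seen, so weak sites at any of the 8 genes are not covered.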
